A study of Mus musculus with 223 samples.

Results

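The genes of the semaphorins and of their plexin and neuropilin receptors were examined in single Htr3a-GFP+ interneurons (INs) of the developing mouse cortex. Members were picked by symbol alone: the semaphorins of classes 3 to 7, the plexins of classes A to D, and Nrp1 and Nrp2. This gave 31 of the 43629 genes in the count table, namely 20 semaphorins (7 of class 3, 6 of class 4, 2 of class 5, 4 of class 6 and 1 of class 7), 9 plexins (4 of class A, 3 of class B, 1 each of classes C and D) and 2 neuropilins.

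Semaphorins are secreted or membrane-bound guidance cues that act on growing axons and migrating neurons. Plexins are their signalling receptors, and most class 3 semaphorins, which are secreted, bind a neuropilin that forms the ligand-binding part of a complex with a class A plexin. Class 4 semaphorins act mainly through class B plexins, and class 6 semaphorins, which span the membrane, bind class A plexins without a neuropilin. In the forebrain, class 3 cues and neuropilins are known for steering tangentially migrating INs away from the striatum.

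INs were sorted for GFP from whole cortex of mice that carried an Htr3a-GFP transgene, in which GFP is driven by regulatory sequences of the serotonin receptor gene Htr3a and marks mainly INs born in the caudal ganglionic eminence (CGE). The cells were captured on microfluidic chips and each was sequenced as its own library of full-length complementary DNA. The count table held 82 cells from embryonic day (E) 18, 66 from postnatal day (P) 2 and 75 from P5. The authors had assigned the postnatal cells to types 1, 2 and 3 from these same counts, giving 22, 31 and 13 cells at P2 and 34, 19 and 22 at P5, and the E18 cells carried no type. All groups carried the transgene and the labels give no treatment. Each age was a pool of several embryos or pups and the cells carry no label of their animal. Each age therefore counts as 1 sample, and no test was possible.

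Levels are given as pooled RPM, the read pairs of a gene summed over the cells of a group for every 1000000 read pairs mapped in those cells, and as the share of cells above 10 RPM. Intervals are exact at the 95% level (Poisson for RPM, Clopper-Pearson for shares) and cover counting error only, since copies made by PCR were counted. Where no cell passed a threshold, the limit given is 3 cells of the group. Mapped read pairs per cell ran from 3707601 to 15840130, and read pairs on genes from 1596087 to 11692823. Type 3 cells were shallower, with median read pairs on genes of 2802948 at P2 and 2620272 at P5, against medians of 4974305 to 5438465 in types 1 and 2. Their median mapped read pairs were 6483871 and 7879973, against 9114966 to 9808331 in types 1 and 2. By these medians a smaller share of their mapped pairs lay on genes. RPM divides by all mapped pairs, so RPM summed over genes was lower in type 3. All P2 cells came from 1 library set (A) and all E18 and P5 cells from 3 others (B, C and D), so a difference between P2 and another age cannot be told apart from the library set, and P2 was not compared with the other ages. At least 1 of 7 interneuron markers passed 10 RPM in 79 of 82 cells at E18, and in 21 of 22, 29 of 31 and 13 of 13 cells of types 1 to 3 at P2 (Dlx2 was at 0 in type 3), and in every P5 cell.

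Expression of these genes was patchy from cell to cell. The median cell held 2 to 6 members above 10 RPM, depending on the group, and the members summed to 837 to 1174 RPM in each group. Of the 31 members, 29 passed 10 RPM in at least 1 cell, and no read pair was found for Plxnb3 and Sema3g in any group. Pooled levels reached 10 RPM in at least 1 group for 24 members and in all 7 groups for 6, the class A plexins Plxna2 and Plxna4 and the semaphorins Sema3c, Sema4b, Sema6a and Sema6d. Plxnd1, Sema3b, Sema4c, Sema4d and Sema7a stayed under 10 RPM in every group. Of the 97 pooled levels above 10 RPM, 46 took over 50% of their read pairs from 1 cell, so pooled levels are read below with the cells behind them.

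**Figure D1:**
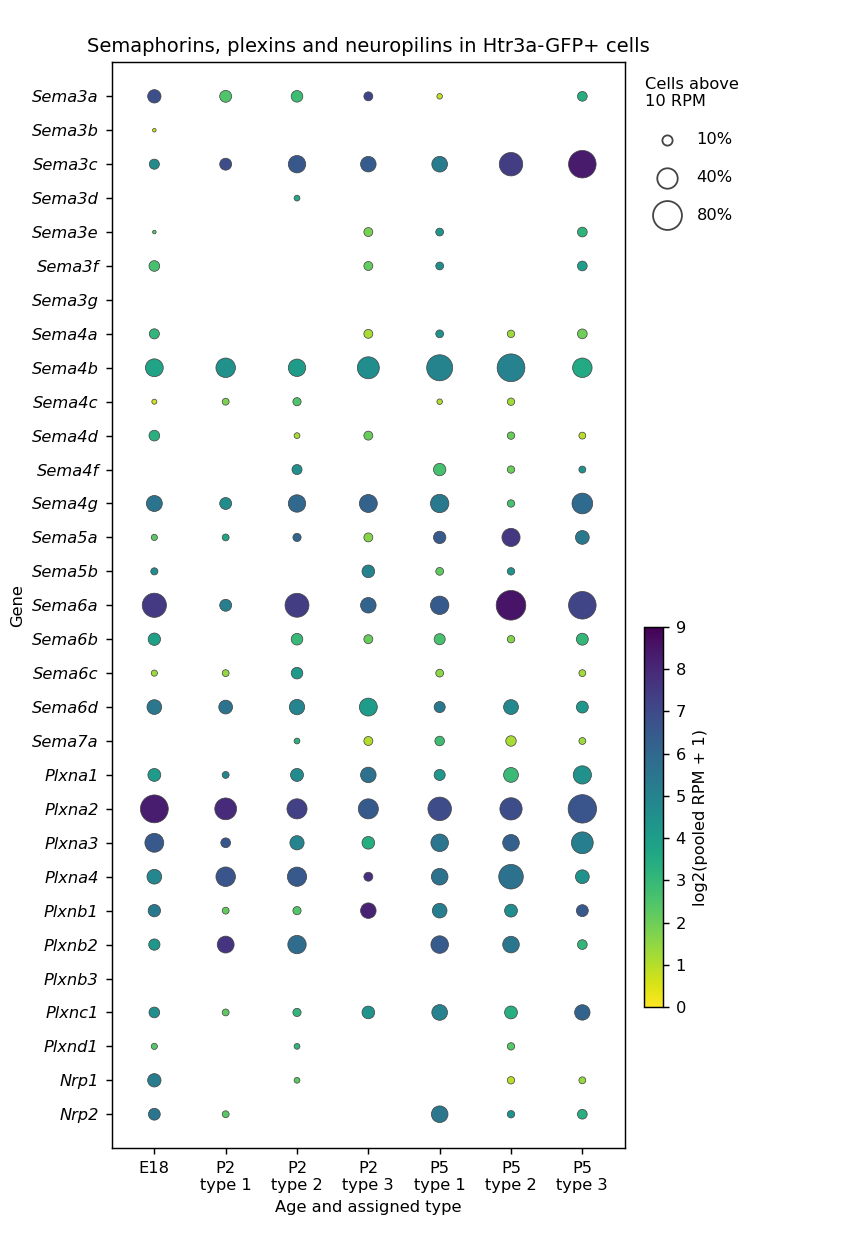
Levels of the 31 members in the 7 groups, E18 and types 1 to 3 at P2 and P5: dot size is the percent of cells above 10 RPM and colour is the pooled level as log2(RPM + 1). Plxna2, Sema6a and Sema4b have large dots in most groups, and Sema3c has its largest dots in types 2 and 3 at P5, with 10 of 19 and 16 of 22 cells above 10 RPM against 8 of 82 at E18.

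Among the receptors, Plxna2 was the most widespread. This class A plexin, a receptor for class 6 semaphorins and part of class 3 receptor complexes, passed 10 RPM in 59.2% of all cells. Its pooled level was 310 RPM at E18, where 61 of 82 cells passed 10 RPM and the cells ran from 0.0882 to 4502 RPM with a median of 88.4. Types 1, 2 and 3 held 240, 151 and 88.5 RPM at P2, with 10 of 22, 12 of 31 and 5 of 13 cells above 10 RPM. Type 1 held 118 RPM and type 3 held 11.7 RPM without the highest cell. At P5 they held 122, 118 and 100.5 RPM, with 18 of 34, 9 of 19 and 17 of 22 cells, and type 2 was at 58.2 RPM without its highest cell. The ranges of the cells overlapped between all groups, and the level fell by 1.42 on the log2 scale from E18 to P5. Within the 3 library sets that held both ages the difference was -0.61, -3.58 and -0.58, so it passed 2-fold in 1 of them.

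The other class A plexins were found in fewer cells. Plxna3, a partner of Nrp2, passed 10 RPM in 28.3% of all cells, with pooled levels of 90.5 RPM at E18, 94.6, 29.2 and 9.68 RPM in types 1 to 3 at P2, and 44.2, 76.2 and 35.5 RPM at P5. It passed 10 RPM in 28 of 82 cells at E18, 2 of 22, 6 of 31 and 2 of 13 cells at P2, and 10 of 34, 5 of 19 and 10 of 22 cells at P5. Without the highest cell its level was 47.8, 13.8 and 1.55 RPM at P2, and 9.31 and 16.0 RPM in types 1 and 2 at P5, so those levels rested largely on single cells. Plxna4, which pairs with Nrp1 in Sema3a receptors, passed 10 RPM in 27.4% of cells, with 28.5 RPM at E18, 98.6, 90.2 and 214 RPM at P2 and 48.8, 47.3 and 20.9 RPM at P5. The value of 214 RPM in type 3 at P2 came from 1 of 13 cells and was 0.256 RPM without it, whereas 8 of 22 and 11 of 31 cells of types 1 and 2 passed 10 RPM. Type 1 was at 56.6 RPM at P2 and 17.7 RPM at P5 without the highest cell, and type 3 at P5 at 13.6 RPM. Plxna1 stood between 6.51 and 50.8 RPM, the latter in type 3 at P2 and 8.82 RPM without the highest cell, and its 29.3 RPM in type 1 at P2 was 0.370 RPM without the highest cell. Gm26811, an antisense gene, covers 10.7% of the Plxna1 exons, and whether the counting used strand is not given in the sources used here, so reads of the pair may be mixed.

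The neuropilins, which bind class 3 semaphorins and vascular endothelial growth factor, differed in how they were found after birth, Nrp1 above 10 RPM in few cells and Nrp2 in 12 P5 cells, 9 of them of type 1. Nrp1 was at 37.6 RPM at E18, where 14 of 82 cells (17.1%, 9.66 to 26.98%) passed 10 RPM, with cells from 0 to 766 RPM and a median of 0.215. In the postnatal types it stood at 0.538, 4.12 and 0.696 RPM at P2 and at 0.127, 0.965 and 1.68 RPM at P5, with 1 of 66 and 2 of 75 cells above 10 RPM. The highest single values after birth were 98.3 RPM in a type 2 cell at P2 and 22.5 RPM in a type 3 cell at P5, inside the E18 range. Nrp2 was at 43.4 RPM at E18 (11 of 82 cells) and at 41.9 RPM in type 1 at P5 (9 of 34 cells, 26.5%, 12.9 to 44.4%), or 21.8 RPM without its highest cell. It passed 10 RPM in 1 of 19 type 2 and 2 of 22 type 3 cells at P5 and in 1 of 66 cells at P2. At a threshold of 1 RPM the order of the types turned, with 16 of 34 type 1, 8 of 19 type 2 and 16 of 22 type 3 cells. In library sets B, C and D 2 of 11, 5 of 11 and 2 of 12 type 1 cells passed 10 RPM for Nrp2. In set C, 1 of 3 cells each of types 2 and 3 passed it, and their pooled levels of 111.7 and 56.7 RPM were above the 40.4 RPM of type 1.

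Cells with a neuropilin and a class A plexin together above 10 RPM numbered 21 of 82 at E18 (25.6%, 16.6 to 36.4%), 0 of 66 at P2 and 6 of 34, 1 of 19 and 3 of 22 in types 1 to 3 at P5. With no cell, the limit of 3 cells is 13.6, 9.68 and 23.1% of types 1 to 3 at P2. A class A plexin without a neuropilin was the common state, in 51 of 82 cells at E18, in 17 of 22, 21 of 31 and 7 of 13 cells of types 1 to 3 at P2 and in 20 of 34, 16 of 19 and 18 of 22 cells at P5. These shares depended on the threshold: at 1 RPM, 38.5 to 77.3% of cells in each group held both. At 30 RPM both were found in 18 of 82 cells at E18, 4 of 34 type 1 cells at P5 and no cell of the other groups.

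**Figure D2:**
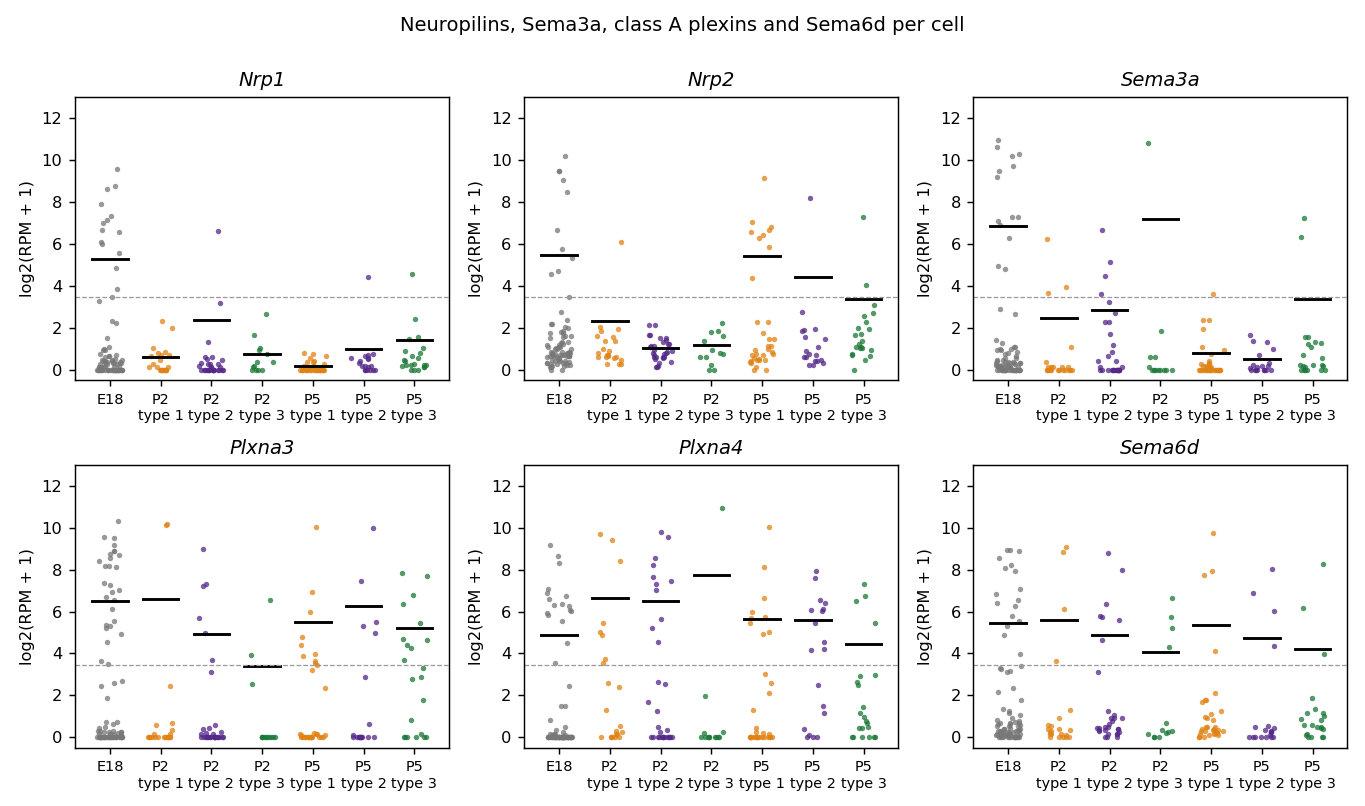
Level of each cell as log2(RPM + 1) for Nrp1, Nrp2, Sema3a, Plxna3, Plxna4 and Sema6d in the 7 groups, with the pooled level as a black line and 10 RPM dashed. Nrp1 cells above 10 RPM number 14 at E18 and 3 after birth, and the Plxna4 level of type 3 at P2 rests on a single high cell.

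Among the ligands, Sema3a and Sema3c were highest at opposite ages. Sema3a, a secreted repellent of migrating INs and axons, was at 113 RPM at E18, with 14 of 82 cells above 10 RPM and the 5 highest at 2008, 1559, 1257, 1151 and 832 RPM. At P5 it was at 0.722, 0.428 and 9.42 RPM in types 1 to 3, with 1 of 34, 0 of 19 and 2 of 22 cells above 10 RPM and the highest cell at 149.6 RPM. At P2 the types held 4.57, 6.13 and 143 RPM, and the last value was 0.287 RPM without 1 cell of 1791 RPM. The difference between P5 and E18 was -4.91 on the log2 scale, and it was -6.51, -5.77 and -4.61 within the 3 library sets. All 14 Sema3a cells at E18 had at least 2 markers of INs from the medial ganglionic eminence (MGE) above 10 RPM, and against the 24 E18 cells with fewer than 2 such markers and fewer than 3 excitatory ones the difference was 1.49. That positive difference set 2.79 RPM at P5 (4% of cells above 10 RPM) against 0.353 RPM (0 of 24 cells), both low levels.

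Sema3c, a secreted class 3 semaphorin that attracts some cortical axons and needs a neuropilin for binding, was at 24.3 RPM at E18 with 8 of 82 cells above 10 RPM. At P2 it was at 118, 93.8 and 84.5 RPM in types 1 to 3, carried by 3 of 22, 9 of 31 and 3 of 13 cells, and types 1 and 3 were at 66.4 and 48.5 RPM without the highest cell. At P5 it was at 37.4 RPM in type 1 (8 of 34 cells, median of all cells 0, 11.7 RPM without the highest cell), 168 RPM in type 2 (10 of 19, median 33.1) and 327 RPM in type 3 (16 of 22, median 122). The 5 highest type 3 cells stood at 1524, 1317, 793, 778 and 664 RPM, and type 1 held 1 cell at 1092 RPM, so the ranges overlapped. The shares above 10 RPM were 23.5% (10.7 to 41.2%) in type 1 and 72.7% (49.8 to 89.3%) in type 3, and these intervals, over cells of 1 pool, do not test a difference between types. Type 1 differed from types 2 and 3 at P5 by -2.68 on the log2 scale, and by -5.81, -0.85 and -1.79 within sets B, C and D, so it was within 2-fold in set C. Type 3 differed from types 1 and 2 by 1.97. Type 3 held 17 of its 22 cells in library set D, where its difference was 1.13, and in set C, with 3 type 3 cells, it was -0.56. The P5 level was higher than at E18 by 2.51, and by 3.80, -0.05 and 1.82 within sets B, C and D.

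The other class 3 members were rare. Sema3e passed 10 RPM in 6 cells of all groups, and its highest level, 18.95 RPM in type 1 at P5, was 1.45 RPM without the highest cell. Sema3b passed it in 1 cell at E18, and Sema3d, at 11.3 RPM in type 2 at P2, in 1 of 31 cells. Sema3f passed 10 RPM in 9 of 82 cells at E18 (5.23 RPM) and its 23.2 RPM in type 1 at P5 took 94.0% of its read pairs from 1 of 34 cells. A class 3 semaphorin above 10 RPM was present in 29 of 82 cells at E18, in 4 of 22, 13 of 31 and 5 of 13 at P2 and in 10 of 34, 10 of 19 and 16 of 22 at P5. Sema3a and Sema3c passed 10 RPM together in 0 of 82 E18 cells, for which 3 cells are 3.66%.

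Class 6 semaphorins are transmembrane ligands, and Sema6a, a ligand of Plxna2 and Plxna4, led the levels per length of exon at E18 and in type 2 at both ages. It was at 177 RPM at E18, where 46 of 82 cells passed 10 RPM and the cells ran from 0 to 1178 RPM with a median of 26.6. Types 1, 2 and 3 held 35.8, 166 and 69.4 RPM at P2 (3 of 22, 17 of 31 and 3 of 13 cells) and 89.4, 367 and 143 RPM at P5 (11 of 34, 16 of 19 and 16 of 22 cells). Without the highest cell, types 1 to 3 were at 10.7, 101.6 and 25.6 RPM at P2 and type 2 at 225 RPM at P5. Type 2 was therefore the highest type at both ages, with differences from the other types of 1.86 at P2 and 1.77 at P5 on the log2 scale, and for type 1 the differences were -1.99 and -1.52. The cells of the types overlapped, from 0 to 1141 RPM in type 1 and from 0 to 1876 RPM in type 2 at P5. In library set C, with 11 cells of type 1 and 3 each of types 2 and 3, the P5 differences were 0.15 for type 1 and -0.06 for type 2. In set D they were -2.06 and 1.25. From E18 to P5 the pooled Sema6a level differed by -0.01. Of the other class 6 members, Sema6d stood at 15.6 to 47.1 RPM in the 7 groups (3.71 to 35.8 RPM without the highest cell), Sema6c at 0.0720 to 16.5 RPM and Sema6b at 0 to 13.9 RPM. The highest Sema6c level, in type 2 at P2, was 4.62 RPM without the highest cell. The highest Sema6b level, at E18, included 1 cell at 889 RPM, with the next at 104 RPM. Sema6a with Plxna2 or Plxna4 above 10 RPM in the same cell was found in 37 of 82 cells at E18, in 2 of 22, 9 of 31 and 2 of 13 at P2, and in 7 of 34, 14 of 19 and 14 of 22 at P5.

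Sema5a, a transmembrane class 5 semaphorin, was nearly silent at E18, where the pooled level was 3.81 RPM and 3 of 82 cells passed 10 RPM. It was at 12.3, 68.1 and 2.11 RPM in types 1 to 3 at P2, from 1 of 22, 2 of 31 and 1 of 13 cells. At P5 the types held 86.1, 190 and 41.3 RPM, from 5 of 34, 6 of 19 and 4 of 22 cells, and the median cell was below 1 RPM in each. These levels thus came from few cells with high levels, among them type 1 and type 2 cells of 2072 and 1512 RPM at P5. The highest cell left out, types 1 and 2 were at 0.741 and 20.1 RPM at P2 and types 1 to 3 at 18.5, 96.3 and 17.3 RPM at P5. Sema5a at P5 was higher than at E18 by 4.43 on the log2 scale and by 3.52, 4.08 and 4.58 in the 3 library sets. Its relative Sema5b was at 23.8 RPM at E18 from 4 cells (8.25 RPM without the highest), and its 30.7 RPM in type 3 at P2 and 19.9 RPM in type 2 at P5 came mostly from 1 cell each.

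The stretch before the transcription start is shown for the 2 members with the most negative difference between all P5 and all E18 cells, Sema3a and Nrp1, and the 2 with the most positive, Sema5a and Sema3c. For Sema3a the difference changed sign with the E18 cells used, and where positive it lay between low levels (2.79 RPM at P5 and 0.353 RPM at E18). Each runs 5′ to 3′ over the 250 bases before the RefSeq start on the plus strand of GRCm38.p6, at chr8:128358823-128359072 (Nrp1), chr5:13396534-13396783 (Sema3a), chr15:32244563-32244812 (Sema5a) and chr5:17574566-17574815 (Sema3c). Capitals mark GC boxes, searched as GGGCGG on both strands. In the GENCODE annotation of GRCm38, Nrp1 (ENSMUSG00000025810) spans chr8:128358604-128503363, Sema3a chr5:13125414-13602565, Sema5a chr15:32244810-32696341 and Sema3c chr5:17574281-17730268, all on the plus strand, so the RefSeq starts lie within the GENCODE genes.
Nrp1: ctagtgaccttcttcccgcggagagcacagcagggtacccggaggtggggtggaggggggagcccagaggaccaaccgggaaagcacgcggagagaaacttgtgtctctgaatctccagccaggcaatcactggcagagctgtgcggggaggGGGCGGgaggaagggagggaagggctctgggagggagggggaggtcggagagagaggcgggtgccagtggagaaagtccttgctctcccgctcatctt
Sema3a: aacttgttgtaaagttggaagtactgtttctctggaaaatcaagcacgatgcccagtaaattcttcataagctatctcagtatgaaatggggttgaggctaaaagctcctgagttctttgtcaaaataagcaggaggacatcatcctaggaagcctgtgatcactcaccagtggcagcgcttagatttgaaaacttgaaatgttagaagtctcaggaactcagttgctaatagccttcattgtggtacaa
Sema5a: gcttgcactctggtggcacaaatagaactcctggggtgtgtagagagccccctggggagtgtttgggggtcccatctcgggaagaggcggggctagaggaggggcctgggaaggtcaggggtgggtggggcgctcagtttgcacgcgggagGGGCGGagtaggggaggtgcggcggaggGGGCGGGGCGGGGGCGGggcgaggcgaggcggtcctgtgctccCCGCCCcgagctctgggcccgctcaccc
Sema3c: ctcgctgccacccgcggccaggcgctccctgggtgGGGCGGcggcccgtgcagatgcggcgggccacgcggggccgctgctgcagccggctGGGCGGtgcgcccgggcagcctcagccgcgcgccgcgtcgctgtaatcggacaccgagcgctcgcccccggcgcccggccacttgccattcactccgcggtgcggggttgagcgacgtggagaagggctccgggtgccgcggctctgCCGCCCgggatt
The Sema3a stretch stood apart in base composition, with 40.8% G and C, 2 CG dinucleotides and no GC box, and Sema3c lay at the other end with 78.4%, 39 and 3. The Sema3a stretch ends at chr5:13396783, far inside a gene that starts at chr5:13125414, whereas the other stretches lie near the starts of their genes. Whether this position bears on its composition was not tested. Nrp1 had 64.4%, 11 and 1 and Sema5a 72%, 17 and 5, so neither pair was alike in these features. Over 32851 RefSeq promoters the medians were 52.4% and 6 CG dinucleotides, and 32.7% held a GC box. Promoters were matched for 26 of the 31 members, with 37 starts, of which 27 held a GC box, 19 an E-box (CANNTG, which reads alike on both strands, in 66.2% of all promoters) and 0 a TATAAA (12.4%) or a TAATTA (4.84%), the core bound by many homeodomain factors. Plxna1, Plxna4, Sema3b, Sema3f and Sema6a were not matched.

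Class 4 semaphorins span the membrane. Sema4b was low but frequent, above 10 RPM in 41.3% of all cells at pooled levels of 10.9 to 32.1 RPM, with shares of 22 of 34, 14 of 19 and 8 of 22 cells in types 1 to 3 at P5. Sema4g stood at 24.2 to 72.8 RPM except in type 2 at P5, where it was at 5.08 RPM in 1 of 19 cells, against 11 of 34 and 9 of 22 cells of types 1 and 3. Its 62.3 and 72.8 RPM in types 2 and 3 at P2 were 21.1 and 11.4 RPM without the highest cell. Sema4a was above 10 RPM in 14 cells in all, 8 of them at E18, and reached 20.3 RPM in type 1 at P5 from 2 of 34 cells. Sema4f passed 10 RPM in 10 cells, none of them at E18. Its 22.3 RPM in type 2 at P2 took 93.6% of its read pairs from 1 of 31 cells, and its 21.1 RPM in type 3 at P5 took 99.1% from 1 of 22. Sema4c and Sema4d passed 10 RPM in 7 and 13 cells. Sema7a, a membrane-anchored member that binds Plxnc1, passed it in 8 cells, all of them postnatal.

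The class B plexins, receptors of class 4 semaphorins, differed between types. Plxnb2 was at 200 RPM in type 1, 56.5 RPM in type 2 and 0.828 RPM in type 3 at P2, with 6 of 22, 10 of 31 and 0 of 13 cells above 10 RPM. Its 3 highest P2 cells stood at 1382, 1146 and 1129 RPM in type 1 and 676, 465 and 271 RPM in type 2. The highest type 3 cell was at 8.20 RPM. At P5 the same types held 85.5, 43.7 and 7.63 RPM (10 of 34, 5 of 19 and 2 of 22 cells), and without the highest cell types 1 to 3 were at 52.8, 22.05 and 1.69 RPM. Type 3 was the lowest at both ages, with differences of -6.01 and -3.06 on the log2 scale, and type 1 the highest, with 2.14 and 1.67, although type 1 cells ran from 0 to 1314 RPM at P5 and overlapped all others. In library set B, where type 2 and type 3 had 2 cells each, the P5 difference of type 1 was -1.22. Plxnb1 went the other way in type 3, at 284 RPM at P2 and 91.1 RPM at P5 against 3.41 to 35.05 RPM in types 1 and 2. That rested on 3 of 13 and 3 of 22 cells, with 2718, 431 and 16.7 RPM at P2 and 1171, 252 and 78.6 RPM at P5. Without the highest cell, type 3 held 38.1 RPM at P2 and 15.8 RPM at P5, the latter below type 1. Plxnc1, the receptor of Sema7a, was at 19.9 and 71.99 RPM in type 3 at P2 and P5 (2 of 13 and 5 of 22 cells), and 2.25 and 51.9 RPM without the highest cell. It was at 22.4 RPM at E18, at 3.66 and 7.50 RPM in types 1 and 2 at P2 and at 31.1 and 9.29 RPM at P5, and the highest cell left out, at 13.8 RPM at E18, 0.00474 and 3.2003 RPM at P2 and 14.2 and 3.24 RPM at P5. At E18, Plxnb1 and Plxnb2 were at 40.6 and 17.8 RPM, in 12 and 10 of 82 cells. The class D plexin Plxnd1 stayed below 10 RPM in each group.

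**Figure D3:**
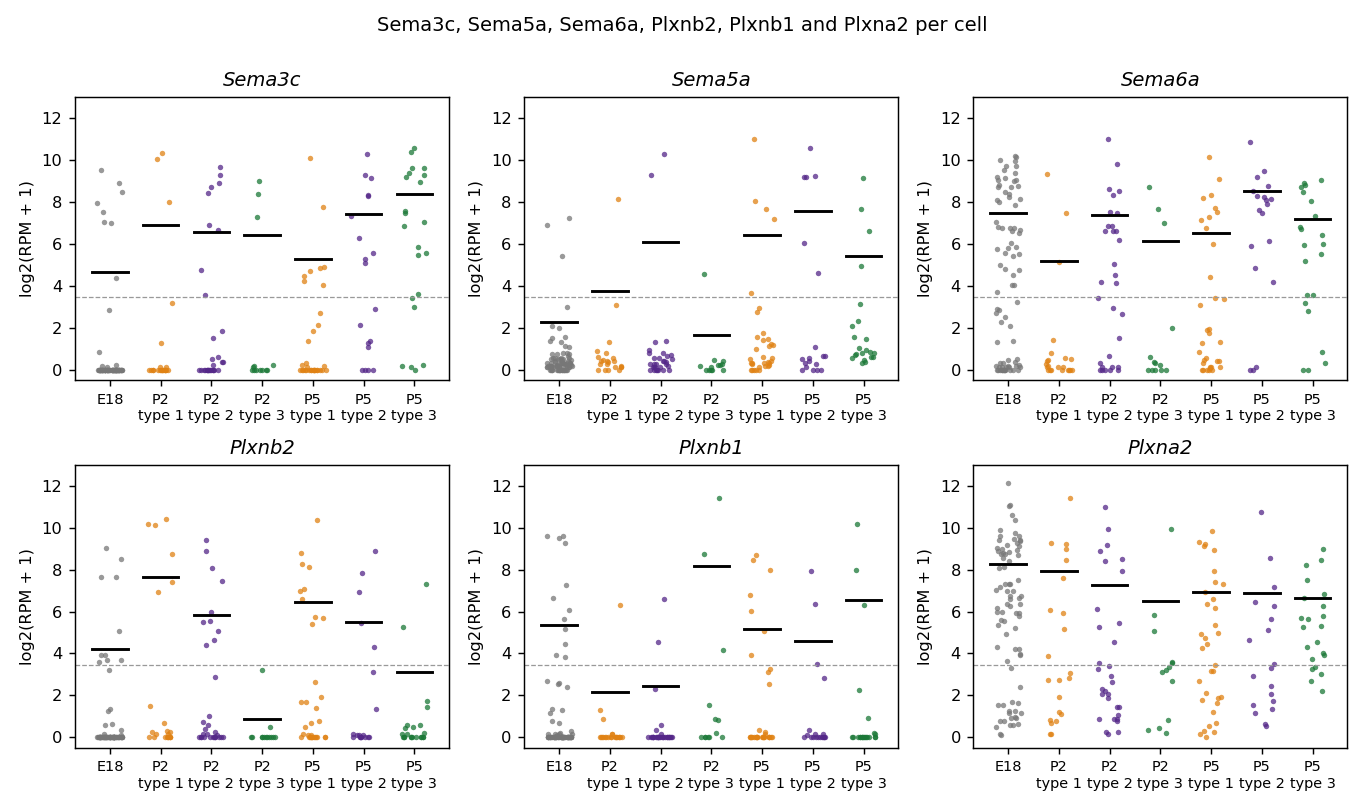
Level of each cell as log2(RPM + 1) for Sema3c, Sema5a, Sema6a, Plxnb2, Plxnb1 and Plxna2 in the 7 groups, with the pooled level as a black line and 10 RPM dashed. For Sema3c, 16 of 22 type 3 cells at P5 lie above the dashed line, against 8 of 34 type 1 cells.

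Divided by exon length, which allows genes to be compared, the leading members were Sema6a (20.1 RPM per kb), Plxna2 (18.1) and Plxna3 (11.5) at E18, and with the longest transcript as length Plxna2 came before Sema6a. At P2 the first member was Plxnb2 in type 1 (25.96 RPM per kb), Sema6a in type 2 (19.0) and Plxnb1 in type 3 (29.6). Without the highest cell of each gene Sema3c led in type 3 at P2, at 6.80 RPM per kb against 3.98 for Plxnb1. At P5 it was Plxnb2 in type 1 (11.1), Sema6a in type 2 (41.8) and Sema3c in type 3 (45.8). Without the highest cells Sema6a (7.35) and Plxnb2 (6.84) changed places in type 1 at P5. Sema3c ranked second in types 1 and 2 at P2 and in type 2 at P5, at 16.5, 13.1 and 23.6 RPM per kb. By cell, and again per kb, Sema6a was the highest member in 22 of 82 E18 cells and Sema3c in 9 of 22 type 3 cells at P5, and in type 2 at P5 each of these 2 genes led in 6 of 19 cells.

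Each type was compared with the other types of its age on the log2 scale of pooled RPM with 1 RPM added. Genes entered where the share of compared cells above 10 RPM exceeded 5%. A gene was called when it passed 2-fold. Since the types were drawn from these counts, the calls describe the types and test nothing. At P2, 16 members and 8400 genes were measured. In type 1, 2 members were higher and 8 lower (all genes: 19.4 and 31.9% called). In type 2, 4 were higher and 4 lower (28.1 and 19.9%), and in type 3, 4 were higher and 6 lower (16.0 and 53.4%). At P5, 20 members and 9675 genes were measured. Type 1 had 6 higher and 3 lower (23.6 and 23.7%), type 2 had 2 higher and 10 lower (23.5 and 21.8%) and type 3 had 5 higher and 7 lower (14.7 and 45.7%). The median member differed by -0.75, -0.41 and -0.26 in types 1 to 3 at P2, where the median of all genes was -0.25, 0.19 and -1.26. At P5 the members' medians were 0.36, -0.86 and -0.49, and those of all genes 0.04, 0.03 and -0.78. In types 1 and 2 the members' median was below that of all genes at P2, and in type 3 it was above it at both ages. These counts depended on how cells were averaged. With the mean of log2(RPM + 1) over cells, 1, 1 and 3 members were past 2-fold in types 1 to 3 at P2 and 3, 4 and 7 at P5. Counted from the median gene, 8 members were higher and 4 lower in type 3 at P2, and 7 and 3 at P5.

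Both ages can be set side by side for 14 members. Those past 2-fold in 1 direction at both ages were Sema6a (type 1 lower, type 2 higher), Sema5a (type 2 higher by 2.71 and 1.41, type 3 lower by -3.87 and -1.54), Plxnb2 (type 1 higher, type 3 lower), Plxnb1 (type 2 lower by -3.92 and -1.20, type 3 higher by 5.84 and 1.53) and Plxnc1 (type 3 higher by 1.603 and 1.576). Without the highest cell, type 3 stood at -0.44 for Plxnc1 at P2 and at -0.60 for Plxnb1 at P5, so these 2 reversed, and with the mean of log2 values Plxnb1 in type 3 at P5 was at -0.19. With that mean, several calls were also within 2-fold at both ages: Sema5a in type 2 (0.28 and 0.91) and type 3 (-0.44 and 0.0496), Plxnb1 in type 2 (-0.57 and -0.39) and Plxnc1 in type 3 (0.48 and 0.36). Plxnb2 in type 1 was so at P2 (0.89). In library set C Sema6a in types 1 and 2 and Plxnb1 in type 3 had the opposite sign at P5, and in set B Plxnb2 in type 1. Plxna4 in type 3 (1.18 at P2, -1.17 at P5) and Sema6b in type 2 (2.04 and -1.12) passed it in opposite directions, 1 of 14 members in each of these types and none in type 1. Of all 7739 genes measured at both ages, 800, 784 and 927 were called in opposite directions in types 1 to 3. Of the same genes, 463 were higher and 727 lower in type 1 at both, 624 and 376 in type 2, and 214 and 2160 in type 3, where the shallower cells moved with the lower values. The part of depth, and of the share of mapped pairs on genes, in these differences was not tested.

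**Figure D4:**
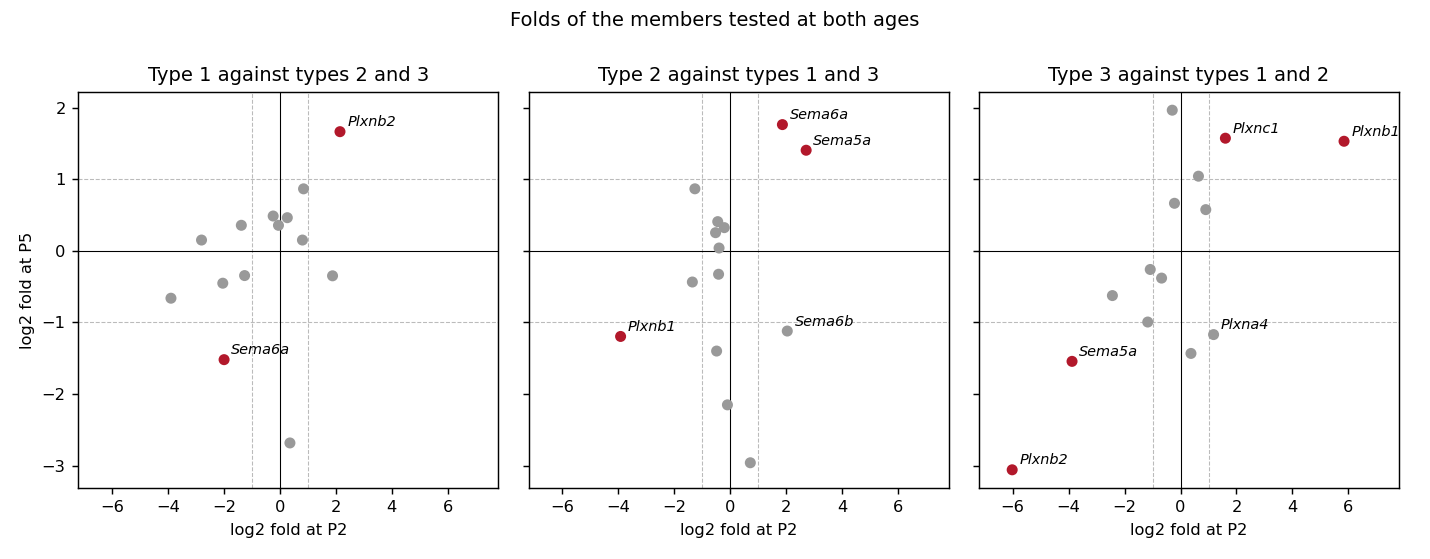
Log2 difference of each type from the other types at P2 (horizontal) and at P5 (vertical) for the 14 members measured at both ages, with members past 2-fold in 1 direction at both ages in red. Sema6a lies low in type 1 and high in type 2, and Plxnb2 lies high in type 1 and at -6.01 and -3.06 in type 3.

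Between ages, all P5 cells were compared with all E18 cells. Of 20 members measured, 4 were higher at P5 and 5 lower, where 11.9 and 19.6% of the 9808 genes were called. The median member differed by -0.03 and the median gene by -0.17. The higher members were Sema5a (4.43), Sema3c (2.51), Plxnb2 (1.59) and Sema3f (1.39), and the lower ones Sema3a (-4.91), Nrp1 (-4.48), Sema4d (-2.03), Plxna2 (-1.42) and Sema6b (-1.34). Sema4d and Sema6b were within 2-fold in 3 of 14 alternatives each, as low as -0.47 and -0.31 with the mean of log2 values. The first 2 of each list are those whose promoters are printed above. Nrp1 was lower in each of the 3 library sets (-4.38, -5.03 and -4.94) and Sema5a higher in each, while Plxnb2 was at -0.04 in set D and Sema3f at -1.04 and -3.71 in sets B and C.

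The E18 cells differed in the markers they carried. At least 3 excitatory neuron markers passed 10 RPM in 12 of the 82 cells, at least 2 MGE markers in 46 of the others, and 24 cells met neither rule, of which 17 had 1 MGE marker above 10 RPM. Of the 12 cells, 9 also passed 10 RPM for an interneuron marker and 8 for an MGE marker, and 5 met the MGE rule. Whether these were doublets was not tested. The classes were spread unevenly over library sets, with 9 of the 12 cells in set D, 31 of the 46 in set B and 15 of the 24 in set B, so class and set are partly mixed. After birth, 8 type 2 and 3 type 3 cells at P2 met the MGE rule and none at P5. All 14 E18 cells with Sema3a above 10 RPM were among the 46 with MGE markers (30.4%, 17.7 to 45.8%), whose pooled level was 202 RPM, against 0.353 RPM in the 24 remaining cells and 0.469 RPM in the 12 with excitatory markers. Sema3f was arranged alike, with 9 of its 9 cells there. Nrp1 was highest in the 12 cells with excitatory markers, at 132 RPM in 6 cells, against 27.2 RPM (5 of 46) and 8.51 RPM (3 of 24). Sema3c was at 116 RPM in the cells with excitatory markers (4 of 12), 4.47 RPM in those with MGE markers (1 of 46) and 14.4 RPM in the rest (3 of 24). Plxna4 and Plxnb2 were low in the cells with MGE markers, at 1.59 and 0.563 RPM, and at 81.7 and 98.2 RPM in those with excitatory markers.

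Sema6a passed 10 RPM in 34 of 46 cells with MGE markers, 8 of 24 of the remaining and 4 of 12 of those with excitatory markers. Plxna2 was spread over all 3 classes, at 345, 326 and 152 RPM. Set against the 24 remaining cells alone, P5 differed by 1.49 for Sema3a, by -2.46 for Nrp1 and by 3.22 for Sema3c. The Sema3a difference thus changed sign, though between low levels of 2.79 RPM at P5 and 0.353 RPM in the 24 cells. Nrp1 and Sema3c kept their sign. This split of the E18 cells was made after their values were seen, and its part in the difference between ages was not tested. At P5, 2 type 1, 4 type 2 and 1 type 3 cell carried markers of non-neuronal or excitatory cells, and without such cells Sema3c stood at 213 and 338 RPM in types 2 and 3 and Sema6a at 417 RPM in type 2.

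**Figure D5:**
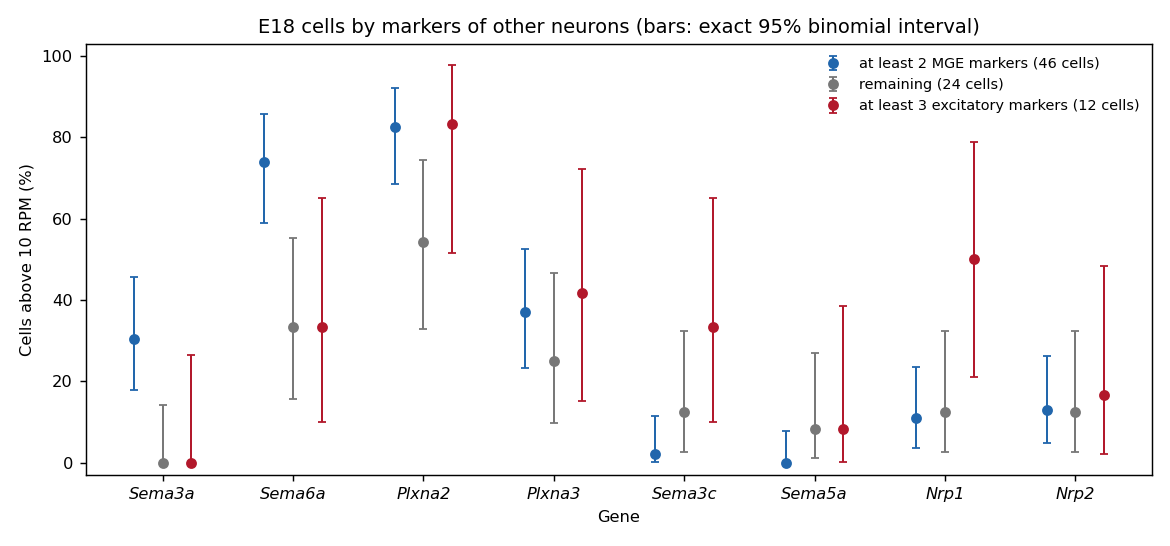
Percent of E18 cells above 10 RPM for members in 46 cells with MGE markers, 24 remaining cells and 12 cells with excitatory markers, with exact 95% binomial intervals as bars. Sema3a is found at 30.4% in the first class and in no cell of the others, and Nrp1 at 50% in the third.

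The partners downstream of plexins were summarised from lists of 32 effectors and 19 co-receptors. In type 3 at P5, 15 of 26 measured effectors were lower and 1 higher, with a median of -1.35 against -0.78 for all genes, where 45.7 and 14.7% of all genes were called. At P2 11 of 24 were lower and 5 higher, where the shares of all genes were 53.4 and 16.0%. In type 2 at P5, 10 of 26 effectors were higher and 0 lower (all genes: 23.5 and 21.8%), with a median of 0.60 against 0.03 for all genes. Of the 19 type 2 cells, 4 passed 10 RPM for at least 2 markers of astrocytes and radial glia and 1 for at least 3 of the oligodendrocyte lineage. Without the cells with markers of other cells, 10 effectors were higher and 2 lower (all genes: 22.4 and 25.5%), with a median of 0.45, and Sema5a in type 2 was at 209 RPM in 5 of 15 cells. Type 2 at P2 had 5 of 24 higher and 2 lower (all genes: 28.1 and 19.9%). Type 1 had 4 of 24 higher and 5 lower at P2 (19.4 and 31.9%) and 5 of 26 and 5 at P5 (23.6 and 23.7%). Between P5 and E18, 1 effector was higher and 1 lower of 25 (11.9 and 19.6%). Apart from type 2 and type 3 at P5, these counts lay near or below the shares of all genes. Gipc1, an adaptor that binds neuropilin and plexin tails, was lower in type 3 by -3.98 at both ages. Few cells lay behind this. Gipc1 passed 10 RPM in 2 type 1, 5 type 2 and 0 type 3 cells at P2. The P5 counts, in the same order, were 4, 3 and 1. Pak1, a kinase of the cofilin pathway, was lower in type 3 by -6.60 and -2.64. Its counts were 11, 17 and 0 at P2, then 13, 11 and 2. The small GTPases Rap1b (-3.12 and -3.05) and Rhoa (-2.75 and -1.92) were lower in type 3 too. So was Dpysl2, a collapsin response mediator (-2.72 and -2.37). These values lay below the all-gene medians of -1.26 and -0.78. Rap1b passed 10 RPM in 6, 8 and 2 cells of types 1 to 3 at P2, then in 11, 7 and 2. For Rhoa the counts were 8, 10 and 1, then 19, 14 and 4. Dpysl2 was widespread, with 22, 31 and 11 cells at P2, then 34, 19 and 22.

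Of the co-receptors, 7 or 8 were measured. Chl1, an adhesion molecule that joins Nrp1 in Sema3a receptors, was at 848 and 961 RPM in type 2 at P2 and P5, 179 and 93.5 RPM in type 1 and 609 and 585 RPM in type 3. It was thus lower in type 1 at both ages, by -2.15 and -3.04 on the log2 scale. Chl1 passed 10 RPM in 6, 31 and 8 cells of types 1 to 3 at P2, then in 18, 19 and 21. Itgb1, the integrin beta subunit, was at 0.612 and 0.248 RPM in type 3 and at 68.9 and 29.9 RPM in type 1. The differences for type 3 were -4.48 and -4.45. Few cells lay behind these levels, with 4, 5 and 1 cells of types 1 to 3 above 10 RPM at P2. The P5 counts were 7, 5 and 0. Of 7 co-receptors at P2, 2, 3 and 1 were higher in types 1 to 3 (all genes: 19.4, 28.1 and 16.0%) and 3, 3 and 2 lower (31.9, 19.9 and 53.4%). Of 8 at P5, 2, 4 and 1 were higher (23.6, 23.5 and 14.7%) and 5, 0 and 3 lower (23.7, 21.8 and 45.7%), and between P5 and E18 1 was higher and 0 lower (11.9 and 19.6%). With 7 or 8 genes these counts say little against the shares of all genes.

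Pairs of members did not vary together strongly over cells of 1 age. The correlation of log2(RPM + 1) ran from -0.31 to 0.37 over 21, 28 and 55 pairs at E18, P2 and P5, and the highest was that of Sema3c and Sema6a over the 75 P5 cells, where both passed 10 RPM in 26. All cells of an age share library sets and types differ in depth, so this is a description and, in such sparse values, no finding.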

How the data were processed

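Single Htr3a-GFP+ cells were sequenced after SMARTer amplification on Fluidigm C1 chips and Nextera XT library preparation. The authors deposited raw read counts per gene, made with TopHat2 and HTSeq 0.6.1 on GRCm38 (mm10) according to the submitters' processing notes, together with mapped read pairs and type of each cell. The library sets A to D follow a number in the column names of the count table, whose meaning is not given. They had kept cells that passed their quality filter and checked capture sites under the microscope. No doublet caller was run here, and 0 sample columns went unused.

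RPM were computed from the counts and the mapped pairs per cell, and pooled over the cells of a group. Genes were measured where the share of compared cells above 10 RPM exceeded 5%, 1 RPM was added before log2, and 2-fold was the call. Each age was a pool without labels of animals, so no p-values were computed. Every member was counted. Those at 10 RPM or more in a group, past 2-fold in 1 direction at both ages, among the 5 largest differences between P5 and E18, or carried by 1 cell were described with their values, as were at most 5 genes of each partner list past 2-fold at both ages. Members and lists were chosen with earlier results of these data known. Exon lengths came from GENCODE, and promoters from RefSeq. Steps were checked on simulated Poisson counts with 1 rate for all cells of a side. These lack the patchiness of the real cells, so the check does not cover levels carried by 1 cell. Alternatives changed the filter, the added RPM, the scaling (edgeR 4.0.16, DESeq2 1.42.0), the average, the cells and the library sets. Computations ran in R 4.3.3 and in Python 3.11.15 with scipy 1.17.1, pandas 2.3.3, numpy 2.4.6 and matplotlib 3.10.9.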

Additional observations from a re-analysis of the deposited data

Results flagged for a closer look

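In 2 members the same contrast went in opposite directions at the 2 postnatal ages, and the difference between ages was not tested. Among all 7739 genes measured at both ages, 800, 784 and 927 did so in types 1 to 3, so with 0, 1 and 1 of 14 members this was no more common than in genes at large. Plxna4 in type 3 differed from types 1 and 2 by 1.18 on the log2 scale at P2 and by -1.17 at P5. The P2 value rested on 1 of 13 cells and was -6.05 without it. The P5 value was within 2-fold in 7 of 12 alternatives, the weakest at -0.39. Sema6b in type 2 differed from types 1 and 3 by 2.04 at P2 and by -1.12 at P5, where its pooled level was 6.72 and 2.15 RPM and 4 of 31 and 1 of 19 cells passed 10 RPM. It was within 2-fold in 2 of 9 alternatives at P2 (weakest 0.55) and 4 of 12 at P5 (weakest -0.099). The P2 level was led by 1 cell at 130 RPM, with the next at 17.8 RPM. P2 cells formed a library set of their own, and its effect on these values cannot be told apart from that of age.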

How the results depend on the processing

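No paired analysis was possible because each age was 1 pool of animals and no replicate was labelled. The counts of members past 2-fold moved by over 1.5 times in 14 of 85 alternatives. Without the filter they were 19, 16 and 20 for types 1 to 3 at P2 and 14 for P5 against E18, in place of 10, 8, 10 and 9. With the mean of log2 values over cells in place of pooled RPM they were 1, 1 and 3 at P2 and 3, 4 and 7 at P5, in place of 9, 12 and 12 at P5. With 10 RPM added they were 7 and 7 for types 2 and 3 at P5. Library set B alone gave 16 for type 1 at P5 and set C alone 15 for P5 against E18. A neuropilin and a class A plexin shared a cell in 47.6% of cells at E18, 40.9, 45.2 and 38.5% of types 1 to 3 at P2 and 41.2, 47.4 and 77.3% at P5 at a threshold of 1 RPM, and in 0% of types 2 and 3 at P5 at 30 RPM.

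Of 33 named differences past 2-fold, 328 of 384 alternatives kept them past it and 18 reversed the sign. Without the highest cell, Plxna4 (-6.05) and Plxnc1 (-0.44) in type 3 at P2 and Plxnb1 in type 3 at P5 (-0.60) reversed. The mean of log2 values reversed Plxna4 in type 3 at P2 (-1.76), Plxnb1 (-0.19) and Sema5a (0.0496) in type 3 at P5 and Sema3f between P5 and E18 (-0.0242). Set B alone reversed Plxnb2 in type 1 at P5 (-1.22) and Sema3f between ages (-1.04). Set C alone reversed Sema6a in types 1 (0.15) and 2 (-0.0589), Plxnb1 (-4.32) and Sema3c (-0.56) in type 3 at P5, and Sema3c (-0.0470) and Sema3f (-3.71) between ages, and set D alone Plxnb2 between ages (-0.0445). Sema3f was at -0.18 without cells that carried non-neuronal or excitatory markers. Sema3a was at 1.49 (2.79 against 0.353 RPM) against the 24 E18 cells with fewer than 2 MGE and fewer than 3 excitatory markers. Both alternatives were chosen after seeing the data. Apart from the larger number of members measured without the filter and the cells left out, the cause of these changes was not tested. Nrp1 and Sema5a between P5 and E18, Plxnb1 in type 3 at P2, Plxnb2 in type 3 at both ages and Sema6a in types 1 and 2 at P2 stayed past 2-fold in every alternative run. At P2 these were 9 alternatives, against 14 between P5 and E18, since all P2 cells were of set A and no set was run alone. For Plxnb2 in type 3 at P5, set B, with 2 type 3 cells, was not run. Where no cell passed, 3 cells are 8.82% of the largest postnatal group and 23.1% of the smallest.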
